A study of Rattus norvegicus with 9 samples.

Results

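Pla2g2a, Orm1, Crp, Apcs and Agt encode secreted plasma proteins that the liver makes in larger amounts in many kinds of inflammation and that are not protease inhibitors. The genes were chosen with earlier results of these data known, and their probe sets were found by the gene symbol in the platform annotation. The genes are 5 of 10411 with an unambiguous symbol among the 15923 probe sets of a rat oligonucleotide array. Each gene had 1 probe set on the array (1368128_at for Pla2g2a, 1368731_at for Orm1, 1387830_at for Crp, 1367804_at for Apcs and 1387811_at for Agt), and all 5 passed the filter on dim probe sets that left 13535 for testing. Total RNA of whole liver from Rattus norvegicus was measured on 9 arrays, 3 in each of 3 groups: Sham-Sham controls, which had sham procedures only, Sham-CLP, in which the burn was a sham, and Burn-CLP, which had both injuries. CLP is not spelled out in the labels and in rodent injury work is cecal ligation and puncture, a model of abdominal infection. The groups share the tissue and species, and strain, sex, age, burn size and time of collection are not given in the sources used here. Whether each array stands for its own animal is not stated either, so the p-values measure a spread among samples that may be technical.

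The acute phase response is the change in plasma protein synthesis that hepatocytes make when interleukin-6, interleukin-1 and glucocorticoids reach them after injury or infection. Interleukin-6 acts through STAT3, interleukin-1 through NF-kB and C/EBP factors, and glucocorticoids through their own receptor, and many acute phase genes read several of these signals together. The response differs between species. In the rat, alpha-2-macroglobulin and alpha-1-acid glycoprotein are major reactants, whereas C-reactive protein is already abundant in plasma of healthy rats, and serum amyloid P is the major reactant among pentraxins in the mouse.

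Array facts that touch these genes are few. Deposited array medians ran from 205 to 268.1, and Sham-Sham 1 was the least like the rest, its mean correlation with them being 0.890 where every other array reached 0.922 to 0.949. All 6 of the 7 hepatocyte markers checked that have a probe set (albumin, transthyretin and others) were above the floor, a signal of 64.3 below which values were set equal, and their summed signal ran from 121707 to 129263 on control arrays, from 128785 to 139899 on Sham-CLP arrays and from 132790 to 140020 on Burn-CLP arrays. The tissue label was thus matched by its markers on every array. In whole tissue, a change in the number of cells that express a gene and a change in RNA per cell cannot be told apart. Each comparison came from 1 limma fit of all 9 arrays on quantile-normalized log2 signals, with Benjamini-Hochberg adjustment over all 13535 probe sets and a threshold of 0.05.

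Among the 5 genes, Pla2g2a passed the test and the others did not. Because the genes were chosen with earlier results known, the shares over all probe sets given here are a description and not a test. Against Sham-Sham, 1 of the 5 rose in Sham-CLP, where 0.0591% of all probe sets tested passed in either direction and 0.0443% upward. In Burn-CLP 1 of the 5 rose, where 0.746% passed in either direction and 0.325% upward. Between Burn-CLP and Sham-CLP 0 of the 5 passed, with 0.0148% of all probe sets passing, and at an unadjusted p under 0.05 in limma there was 1 of the 5, again Pla2g2a, beside 9.09% of all probe sets. The same looser count was 2 of the 5 in Sham-CLP (11.7% of all) and 3 of the 5 in Burn-CLP (19.9% of all) against Sham-Sham. The median log2 change of the 5 genes was 0.34 in Sham-CLP and 0.54 in Burn-CLP against Sham-Sham, beside 0.00 and 0.01 over all probe sets tested. These comparisons share the Sham-Sham arrays. All 5 differences were above 0 in Sham-CLP and 4 of 5 in Burn-CLP, where Apcs lay at -0.02. Of all probe sets tested, 50.6% were above 0 in Sham-CLP and 50.9% in Burn-CLP.

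**Figure D1:**
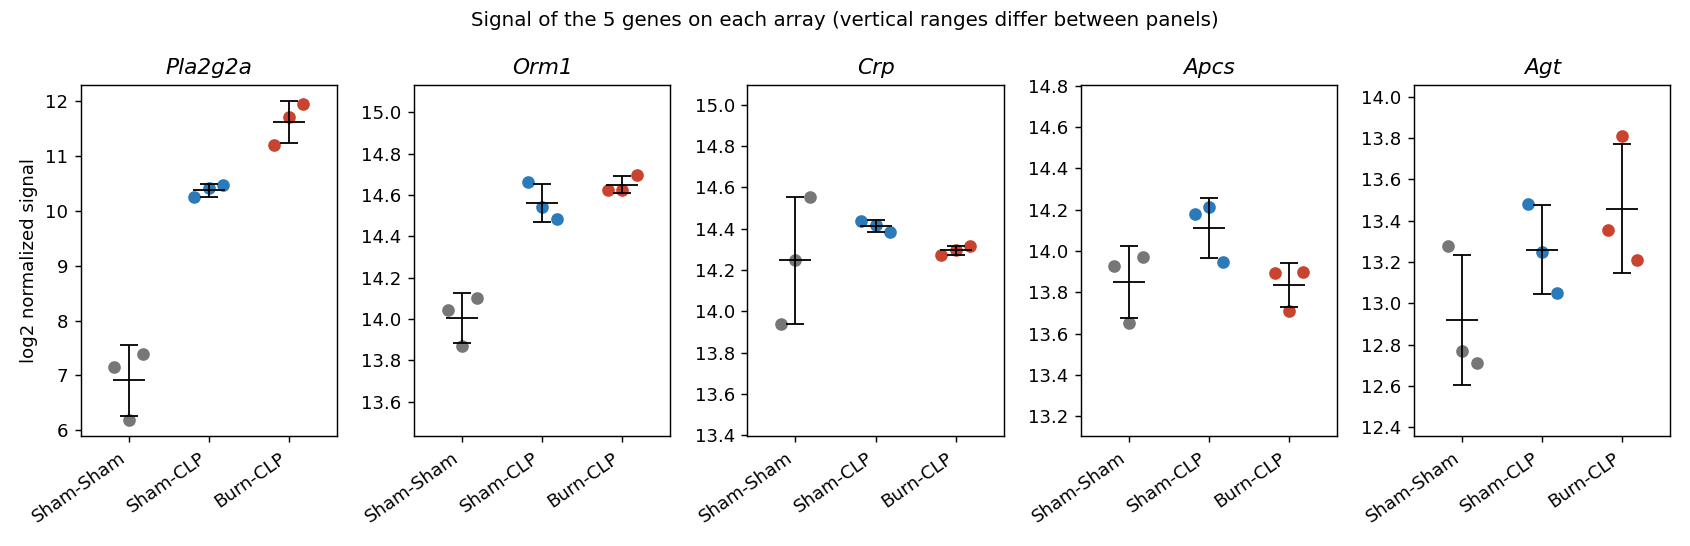
Log2 normalized signal of the 5 genes on each of the 9 arrays, 1 panel per gene; points are arrays, the bar and whiskers are the group mean and SD over 3 arrays. The Pla2g2a groups do not overlap, though Burn-CLP against Sham-CLP did not pass (adjusted p = 0.345). The Orm1 points of both CLP groups lie above the controls without passing (adjusted p = 0.306 and 0.0772), and the groups of Crp, Apcs and Agt overlap Sham-Sham.

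Pla2g2a encodes group IIA secreted phospholipase A2, an enzyme that cuts phospholipids, kills Gram-positive bacteria by attacking their membranes and releases fatty acids from which eicosanoids are made. Its normalized signal was 142, 72.7 and 168 on the Sham-Sham arrays 1 to 3, 1217, 1362 and 1422 on the Sham-CLP arrays, and 2355, 3352 and 3968 on the Burn-CLP arrays. The 3 groups did not overlap, and the lowest CLP array lay far above the highest control. The Sham-Sham arrays lay close to the floor of 64.3, and the lowest of them, Sham-Sham 2, was the nearest to it.

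The mean of Pla2g2a was 127.7 ± 49.4 (SD, n = 3) in Sham-Sham, 1333 ± 106 in Sham-CLP and 3225 ± 814 in Burn-CLP. The rise in Sham-CLP was 11.1-fold (log2 3.47 ± 0.32 SE, adjusted p = 0.00398 in limma), with a 95% confidence interval from 6.78-fold to 18.1-fold. In Burn-CLP it was 26.2-fold (log2 4.71 ± 0.32, adjusted p = 0.000389), with an interval from 16.1-fold to 42.8-fold. No other of the 13535 probe sets had a larger log2 change in the Burn-CLP comparison, and in Sham-CLP Pla2g2a was number 4 from the top. Without Sham-Sham 2 the log2 changes were 3.12 in Sham-CLP and 4.37 in Burn-CLP, the smallest among the fits that left out 1 array, and both passed (adjusted p = 0.00393 and 0.00045). In Sham-CLP the call was lost when dim probe sets were tested too (adjusted p = 0.0503). It passed in 18 of 19 alternatives, and the Burn-CLP call in 19 of 19.

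Burn-CLP stood above Sham-CLP for Pla2g2a by 2.37-fold, with a log2 difference of 1.24 ± 0.32. Every Burn-CLP array lay above every Sham-CLP array, as did 9.83% of all probe sets tested. The unadjusted p of 0.00296 gave an adjusted p of 0.345 in limma, so the difference did not pass, and the unadjusted 95% interval was 1.45-fold to 3.86-fold. In the 19 alternatives the log2 difference lay between 1.03 and 1.46 and passed in 0 of them, with adjusted p from 0.116 to 0.807. The spread was also unequal. The coefficient of variation was 38.7% in Sham-Sham, 7.93% in Sham-CLP and 25.2% in Burn-CLP. Over the 3 groups the residual SD of Pla2g2a was 0.44 on the log2 scale, above the median of 0.31 for all probe sets tested.

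By group median, the summed signals of neutrophil and macrophage markers had the same order of groups as Pla2g2a. Hepatocyte sums had it too, but their medians in Sham-CLP and Burn-CLP were close (132826 and 133081) and the ranges of both groups overlapped. Not each neutrophil gene had that order, and the neutrophil sums of the CLP groups overlapped. Summed over the 3 neutrophil markers on the array (S100a8, S100a9 and Cxcr2), the signal ran from 185 to 271 on control arrays, from 280.0 to 449 on Sham-CLP arrays and from 446 to 1207 on Burn-CLP arrays. Of these S100a9 rose in Burn-CLP (log2 2.80 ± 0.40, adjusted p = 0.0239), with 2 of 3 controls at the floor; it was the 1 marker of the 3 that passed. Cxcr2 differed by -0.27 ± 0.31 in Sham-CLP and 0.07 ± 0.31 in Burn-CLP. The summed signal of 4 macrophage markers (Cd68, Csf1r, Lyz2 and C1qa) was 2684 to 4269, 3561 to 4298 and 3706 to 5920 in the same order, with overlap between the groups. The medians of these sums were 3132, 3855 and 5902. Against Sham-Sham the log2 differences of the 4 markers ran from -0.08 ± 0.28 (Cd68) to 0.49 in Sham-CLP (median 0.22). In Burn-CLP they ran from 0.33 to 1.02 (median 0.53), and 0 of the 4 passed in any comparison. Sums over 4 lymphocyte markers overlapped too, with medians of 683.5, 548 and 651. Of 6 stellate cell and fibroblast markers, whose median log2 difference was -0.60 in Sham-CLP and -0.38 in Burn-CLP, 1 rose in Burn-CLP. That was Dcn, the gene of the matrix proteoglycan decorin (1.48 ± 0.21, adjusted p = 0.0239), which read 285, 268 and 221 in Sham-Sham, 225, 320 and 277 in Sham-CLP and 581, 870.1 and 729 in Burn-CLP. The part of these cell types in the Pla2g2a result was not tested. Summed pancreas markers were lower in the CLP groups, with sums over 5 genes of 1124 to 1513 on control arrays, 843 to 917 on Sham-CLP arrays and 539.9 to 1044 on Burn-CLP arrays. Of these genes, which include Pla2g1b described below, 4 were tested and 0 passed in any comparison. Of the intestinal markers, 2 had a probe set and 0 passed the filter on dim probe sets.

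Among other genes of the phospholipase A2 family and of eicosanoid synthesis, no change passed. Of the 28 genes on that list, 19 had a probe set and 16 were tested, and 0 of them passed in any of the 3 comparisons. Their log2 changes ran from -1.09 to 0.87 in Sham-CLP (median -0.03) and from -1.12 to 0.96 in Burn-CLP (median 0.19), all smaller than those of Pla2g2a. Pla2g1b, the pancreatic phospholipase A2 gene, had the smallest p of the list against Sham-Sham. Its signal was 173, 187 and 83.8 in Sham-Sham, while Sham-CLP 1 and 3 and every Burn-CLP array lay at the floor (log2 difference -1.12 in Burn-CLP, adjusted p = 0.0858). Pafah1b1, which encodes a subunit of an intracellular platelet-activating factor acetylhydrolase, differed by 0.51 ± 0.15 in Burn-CLP (adjusted p = 0.130).

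Pla2g2a lies on rat chromosome 5 within a row of related genes. In the RefSeq annotation its nearest protein-coding neighbours are Pla2g5 on one side and Pla2g2e on the other. Of its 3 nearest neighbours on each side only Pla2g5 had a probe set. Pla2g5 read 477, 292 and 263 in Sham-Sham, 273, 316 and 259 in Sham-CLP and 371, 294 and 306 in Burn-CLP. Those groups overlap, and the differences from Sham-Sham were -0.24 ± 0.24 in Sham-CLP and -0.04 ± 0.24 in Burn-CLP (adjusted p = 0.70 and 0.936). The difference in response between the neighbours was not tested.

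Orm1 encodes alpha-1-acid glycoprotein (orosomucoid), a heavily glycosylated lipocalin that carries basic drugs and lipophilic ligands in plasma. Its normalized signal was 16888, 14961 and 17576 on the Sham-Sham arrays, 25906, 23816 and 22877 on the Sham-CLP arrays and 25275, 25275 and 26548 on the Burn-CLP arrays. All 6 CLP arrays lay above all 3 controls, while both CLP groups overlapped each other. With Pla2g2a this made 2 of the 5 genes above the controls without overlap in each CLP group, beside 8.36% of all probe sets tested for Sham-CLP and 11.3% for Burn-CLP. Burn-CLP 1 and 2 had equal values after quantile normalization, and as deposited they were 23195 and 25640.

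The mean of Orm1 was 16475 ± 1356 (SD, n = 3) in Sham-Sham, 24200 ± 1550 in Sham-CLP and 25699 ± 735 in Burn-CLP. Sham-CLP differed from Sham-Sham by 1.47-fold (log2 0.56 ± 0.15, adjusted p = 0.306 in limma) and Burn-CLP by 1.56-fold (0.64 ± 0.15, adjusted p = 0.0772). Neither passed, although the unadjusted p-values were 0.00477 and 0.00191. The unadjusted 95% intervals ran from 1.16-fold to 1.86-fold in Sham-CLP and from 1.23-fold to 1.98-fold in Burn-CLP. The Burn-CLP difference passed when dim probe sets were tested too (adjusted p = 0.0287) and when the spread was moderated with both a trend on mean signal and robust estimation (adjusted p = 0.00975). After quantile normalization Orm1 had a small spread. Its residual SD of 0.09 on the log2 scale was larger than that of only 1.77% of probe sets tested. For Apcs and Crp, also bright, that share was 8.90% and 16.5%. How far a place at the top of the signal scale set this spread was not tested.

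How the arrays were scaled moved the Orm1 values. In deposited signal the means were 15010 ± 1361 in Sham-Sham, 27414 ± 3102 in Sham-CLP and 24289 ± 1243 in Burn-CLP, so that Sham-CLP stood above Burn-CLP. The log2 difference of Sham-CLP from Sham-Sham was 0.87 with the deposited scaling (adjusted p = 0.153) and 1.08 with scaling to a common median (adjusted p = 0.116). In those settings the median of all probe sets shifted by -0.08 and 0.11. The order of both CLP groups for Orm1 therefore has no settled direction, with Burn-CLP minus Sham-CLP at 0.09 ± 0.15 after quantile normalization, -0.17 with the deposited scaling and -0.33 with a common median.

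By rank within each array, which no scaling alters, Orm1 stood at number 66, 85 and 61 from the brightest on the Sham-Sham arrays. It stood at 16, 25 and 29 on the Sham-CLP arrays and at 17, 18 and 13 on the Burn-CLP arrays. The ranks of the control arrays and of the CLP arrays did not overlap. For Pla2g2a the ranks were 10144, 12409 and 9399 in Sham-Sham, 1782, 1597 and 1534 in Sham-CLP and 929, 643 and 533 in Burn-CLP. Here the 3 groups were separate.

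Pla2g2a and Orm1 were the pair of members with the highest Pearson correlation between their log2 signals over the 9 arrays, at 0.97; the arrays share their normalization. The correlation includes the differences between groups; with group means removed it was 0.66, below the 0.81 of Orm1 and Apcs. The bases before the transcription start of both genes are shown because these are the genes whose control arrays lay apart from all CLP arrays. The sequences are the 250 bases before the start in the RefSeq annotation of build GRCr8, read 5′ to 3′ on the gene's strand, at chr5:156359475-156359724 for Pla2g2a and chr5:81788259-81788508 for Orm1, both on the plus strand. Capitals mark matches to the motifs described after them.

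Pla2g2a: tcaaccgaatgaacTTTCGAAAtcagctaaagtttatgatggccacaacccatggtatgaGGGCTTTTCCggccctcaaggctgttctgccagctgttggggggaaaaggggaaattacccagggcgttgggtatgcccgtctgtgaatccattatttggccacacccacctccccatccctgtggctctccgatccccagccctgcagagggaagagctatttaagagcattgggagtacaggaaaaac
Orm1: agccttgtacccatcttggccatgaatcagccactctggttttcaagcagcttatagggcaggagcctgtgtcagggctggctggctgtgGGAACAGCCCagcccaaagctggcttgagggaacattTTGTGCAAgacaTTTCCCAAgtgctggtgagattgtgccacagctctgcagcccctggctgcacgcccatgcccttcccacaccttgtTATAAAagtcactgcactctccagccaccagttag

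The motifs searched on both strands were a C/EBP core (TTNNGNAA), a STAT core (TTCNNNGAA), an interleukin-6 response element (CTGGGAA), an NF-kB core (GGG and TCC with 4 bases of any kind between them) and a TATA box (TATAAA). In the Pla2g2a window the C/EBP letters occurred once, as TTTCGAAA from 236 to 229 bases before the start, a stretch that reads the same on both strands. The NF-kB letters occurred as GGGCTTTTCC from 190 to 181 bases before it. In the Orm1 window the C/EBP letters occurred at 123 to 116 bases, as TTGTGCAA, and on the other strand at 111 to 104 bases. The NF-kB letters occurred on the other strand at 160 to 151 bases, and a TATA box stood at 35 to 30 bases. Over 33469 promoter windows of that length, 37.2% held the C/EBP letters, 15.2% the NF-kB letters and 12.9% the TATA letters, so such matches are common and are given as a description only.

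Of the 5 genes, 4 had a promoter entry in the RefSeq table. In the Crp window the C/EBP letters occurred on the other strand at 250 to 243 bases and on the plus strand at 47 to 40 bases, and the other motifs did not occur. In the Apcs window the interleukin-6 response element letters occurred at 95 to 89 bases and on the other strand at 241 to 235 bases, where 9.56% of all windows held them, and no other motif occurred. The STAT letters, held by 7.67% of windows, occurred in none of the 4 windows (0 of 4).

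The genes most like Pla2g2a and Orm1 in pattern over the 9 arrays were partly other acute phase genes. For Pla2g2a the 3 highest correlations were with Mid1, an E3 ubiquitin ligase gene (0.98), Pcolce, which encodes an enhancer of procollagen processing (0.97), and Orm1 (0.97). For Mid1, 3 of the 9 arrays lay at the floor. For Orm1 they were Hpx, the gene of the heme carrier hemopexin (0.99), Pla2g2a (0.97) and Lcn2, the gene of the siderophore-binding lipocalin 2 (0.97). With group means removed the values were 0.37 for Mid1, 0.53 for Pcolce, 0.93 for Hpx and 0.55 for Lcn2. Hpx read 20918, 19979 and 21640 in Sham-Sham, 24644, 24006 and 23609 in Sham-CLP and 24006, 24735 and 24735 in Burn-CLP. All 6 CLP arrays were above the controls, yet the log2 differences of Hpx were only 0.21 ± 0.14 and 0.23 ± 0.14 and did not pass (adjusted p = 0.574 and 0.386).

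Crp encodes C-reactive protein, a pentraxin that binds phosphocholine on microbes and damaged cells and recruits complement. Its normalized signal was 15701, 19460 and 24006 on the Sham-Sham arrays, 22213, 21871 and 21364 on the Sham-CLP arrays and 19809, 20116 and 20410 on the Burn-CLP arrays. The controls spanned both CLP groups, with Sham-Sham 1 the lowest and Sham-Sham 3 the highest of the 9 arrays. All 3 Sham-CLP arrays were above all 3 Burn-CLP arrays.

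The mean of Crp was 19722 ± 4159 (SD, n = 3) in Sham-Sham, 21816 ± 427 in Sham-CLP and 20112 ± 300.4 in Burn-CLP. The log2 difference from Sham-Sham was 0.17 ± 0.18 in Sham-CLP (adjusted p = 0.727 in limma) and 0.05 ± 0.18 in Burn-CLP (adjusted p = 0.904). The unadjusted 95% intervals were 0.85-fold to 1.49-fold and 0.78-fold to 1.37-fold. Crp stood at number 77, 47 and 24 from the brightest on the Sham-Sham arrays. Quantile normalization gives every array the same set of values, and number 13 from the brightest on Burn-CLP 3 (Orm1) read 26548. Crp thus had little room to rise above its controls. These intervals therefore cannot tell whether Crp rose as much as Pla2g2a. Whether signals this bright could show such a rise was not tested. Changes of Crp within the intervals were neither shown nor excluded. Without Sham-Sham 1 the Burn-CLP difference was -0.10, so its sign rested on that array, and the Sham-CLP difference was 0.015. Without Sham-Sham 3 they were 0.20 and 0.32. The spread of Crp was unequal, with a coefficient of variation of 21.1% in Sham-Sham, 1.96% in Sham-CLP and 1.49% in Burn-CLP.

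Burn-CLP minus Sham-CLP was -0.12 ± 0.18 for Crp (adjusted p = 0.909). The groups did not overlap with Burn-CLP lower, as was the case for 9.54% of all probe sets tested. With the deposited scaling the value was -0.36 and with a common median -0.51, and neither passed.

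Apcs encodes serum amyloid P component, the other short pentraxin, which coats amyloid fibrils, DNA and bacterial surfaces. Its normalized signal was 15598, 12863 and 16070.2 on the Sham-Sham arrays, 18525, 18967 and 15786 on the Sham-CLP arrays and 15201, 13402 and 15275 on the Burn-CLP arrays. Sham-CLP 1 and 2 were the highest of the 9 arrays, but Sham-CLP 3 lay below the highest control. The Burn-CLP arrays lay within the range of the controls.

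The mean of Apcs was 14844 ± 1731 (SD, n = 3) in Sham-Sham, 17759 ± 1723 in Sham-CLP and 14626 ± 1061 in Burn-CLP. The log2 difference from Sham-Sham was 0.26 ± 0.17 in Sham-CLP (adjusted p = 0.559 in limma), an interval of 0.92-fold to 1.56-fold. In Burn-CLP it was -0.02 ± 0.17 (adjusted p = 0.964), an interval of 0.76-fold to 1.28-fold. Without Sham-Sham 2 the Sham-CLP value was 0.16. Burn-CLP was below Sham-CLP without overlap, by -0.28 ± 0.17 (adjusted p = 0.675). With the deposited scaling that value was -0.49 and with a common median -0.65, and neither passed (adjusted p = 0.367 and 0.296). Of the 5 genes, 3 separated Burn-CLP from Sham-CLP without overlap, Pla2g2a upward and both pentraxin genes downward, beside 19.4% of all probe sets tested.

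Crp and Apcs are next to each other among protein-coding genes of rat chromosome 13, and their signals correlated at 0.38 over the 9 arrays, or 0.13 with group means removed. The partners of the pentraxins did not pass either. Of 22 genes on the list of pentraxin relatives, complement partners and receptors, 15 had a probe set and 13 were tested, and 0 passed in any comparison. Their median log2 change was 0.18 in Sham-CLP and 0.28 in Burn-CLP, and 9 and 12 of the 13 were above 0. Among all probe sets tested the share above 0 was 50.6% and 50.9%. C4bpb, a subunit gene of the complement inhibitor C4b-binding protein, differed by 0.43 ± 0.19 in Sham-CLP and 0.39 ± 0.19 in Burn-CLP (adjusted p = 0.419 and 0.279). Fcgr3a, a gene of an Fc receptor, differed by -0.46 ± 0.19 in Sham-CLP (adjusted p = 0.403).

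Agt encodes angiotensinogen, a serpin without inhibitor function from which renin and angiotensin-converting enzyme release angiotensin II, the hormone that constricts vessels and retains salt. Its normalized signal was 9939, 6982 and 6692 on the Sham-Sham arrays, 11438, 9740.3 and 8470.3 on the Sham-CLP arrays and 10469, 14331 and 9479 on the Burn-CLP arrays. Sham-Sham 2 and 3 were the lowest of the 9 arrays, but Sham-Sham 1 lay within both CLP groups. Burn-CLP 2 was the highest.

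The mean of Agt was 7871 ± 1797 (SD, n = 3) in Sham-Sham, 9883 ± 1489 in Sham-CLP and 11427 ± 2564 in Burn-CLP. The log2 difference from Sham-Sham was 0.34 ± 0.23 in Sham-CLP (adjusted p = 0.572 in limma) and 0.54 ± 0.23 in Burn-CLP (adjusted p = 0.241). The unadjusted interval in Burn-CLP ran from 1.01-fold to 2.08-fold, with an unadjusted p of 0.0432. Without 1 array the Burn-CLP value was between 0.37 (without Burn-CLP 2) and 0.72 (without Sham-Sham 1), and the Sham-CLP value between 0.23 (without Sham-CLP 1) and 0.52 (without Sham-Sham 1). Burn-CLP minus Sham-CLP was 0.20 ± 0.23 (adjusted p = 0.867), and -0.13 with scaling to a common median, so that its sign depended on the scaling. It ran from 0.022 (without Burn-CLP 2) through 0.091 (without Sham-CLP 3) to 0.31 (without Sham-CLP 1) and 0.32 (without Burn-CLP 3).

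The renin-angiotensin list gave no calls. Of its 18 genes besides Agt, 13 had a probe set and 10 were tested, and 0 passed in any comparison. Their median log2 change was 0.10 in Sham-CLP and 0.01 in Burn-CLP. Anpep, the gene of the aminopeptidase that trims angiotensin III, differed by -0.53 ± 0.20 in Burn-CLP (adjusted p = 0.202).

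**Figure D2:**
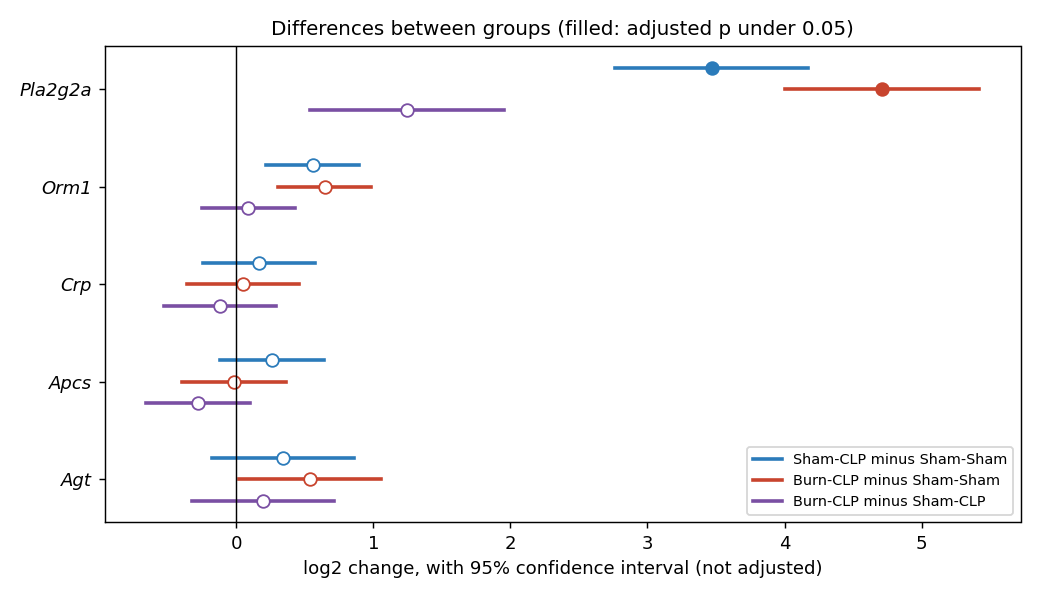
Log2 change of each of the 5 genes in the 3 comparisons, with 95% confidence intervals from the limma fit that are not adjusted; filled points passed at an adjusted p under 0.05. Both filled points belong to Pla2g2a, at 3.47 and 4.71; for Crp and Apcs all intervals cross 0.

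The scaling of the arrays touched all 4 bright genes in the Sham-CLP comparison. With the deposited scaling the log2 differences of Sham-CLP from Sham-Sham were 0.46 for Crp, 0.52 for Apcs and 0.55 for Agt, and with a common median 0.67, 0.73 and 0.76. None (0 of 3) of these passed in either setting, with adjusted p from 0.218 to 0.352. The same differences in Burn-CLP were 0.10, 0.03 and 0.57 with the deposited scaling. For Pla2g2a the Sham-CLP value was 3.42 and 3.63 in those settings, close to 3.47.

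The genes most like Crp, Apcs and Agt in pattern held no secreted acute phase protein from the lists. The 3 highest correlations were with the sphingosine kinase gene Sphk2 (0.98), Nosip (0.98) and the STAT3 inhibitor gene Pias3 (0.97), one of the signalling list, for Crp. They were with the pyrophosphatase gene Ppa1 (0.96), Ppp4r3a (0.95) and Tmem167a (0.95) for Apcs. For Agt they were with the tumour suppressor gene Nf2 (0.96), the mitochondrial import receptor gene Tomm70 (0.96) and the tRNA synthetase gene Eprs1 (0.94). Ppp4r3a lay at the floor on 2 arrays and Pias3 on 1. With group means removed these 9 correlations lay between 0.91 and 0.99, so they rest on the spread within groups. They are a description over 9 arrays. Between members, Crp and Agt had a correlation of -0.23, and Apcs and Agt one of 0.08.

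Among the acute phase protease inhibitors, the large changes belonged to few genes. Of 18 listed genes 14 were tested; 1 rose in Sham-CLP and 2 rose in Burn-CLP, with a median log2 change of 0.12 and 0.22. A2m, the gene of the protease-trapping alpha-2-macroglobulin, rose in both (4.18 ± 0.33 and 4.32 ± 0.33, adjusted p = 0.00184 and 0.000913). Spink1, a trypsin inhibitor gene, rose in Burn-CLP (3.23 ± 0.53, adjusted p = 0.0354), and its larger difference in Sham-CLP did not pass (3.36 ± 0.53, adjusted p = 0.0838). Of 17 tested genes of other positive acute phase proteins, 1 rose in Sham-CLP, and in Burn-CLP 2 rose and 1 fell. Lcn2 rose in both (4.66 ± 0.24 and 4.65 ± 0.24). Lbp, the gene of the lipopolysaccharide-binding protein, rose in Burn-CLP (1.47 ± 0.22, adjusted p = 0.025), while Mbl2, the gene of a mannose-binding lectin that activates complement, fell by 0.98 on the log2 scale (adjusted p = 0.0441). In Sham-CLP they differed by 0.86 ± 0.22 and -0.24 ± 0.18 (adjusted p = 0.281 and 0.595). Their signals in Burn-CLP minus Sham-CLP differed by 0.62 ± 0.22 for Lbp and -0.74 ± 0.18 for Mbl2, which did not pass (adjusted p = 0.453 and 0.332).

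For plasma proteins that fall in inflammation, 14 genes were tested, with 0 passing in Sham-CLP and 1 falling in Burn-CLP. That gene was Igfals, which encodes the subunit that stabilizes circulating insulin-like growth factors (-3.71 ± 0.62, adjusted p = 0.0361), and it lay at the floor on 2 arrays, both of Burn-CLP. In Sham-CLP it differed by -0.69 ± 0.62 (adjusted p = 0.660). Of 10 tested genes of the lipocalin family and of orosomucoid clearance, Lcn2 was the 1 that rose, in both comparisons, and the medians were 0.07 and -0.01.

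Of 31 tested genes of cytokine and glucocorticoid signalling, 0 passed in any comparison, with a median log2 change of 0.18 in Sham-CLP and 0.34 in Burn-CLP. Fkbp5, a gene that glucocorticoids induce, differed by 0.89 ± 0.28 in Sham-CLP and 0.96 ± 0.28 in Burn-CLP (adjusted p = 0.328 and 0.133). Il1r1, the interleukin-1 receptor gene, differed by 1.15 ± 0.33 in Burn-CLP (adjusted p = 0.121). The liver factor gene Foxa3 differed by 0.81 ± 0.18 in Sham-CLP (adjusted p = 0.242). Between Burn-CLP and Sham-CLP the smallest p of the list was that of Cebpa, the gene of C/EBP alpha, at -0.85 ± 0.19 (adjusted p = 0.293).

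**Figure D3:**
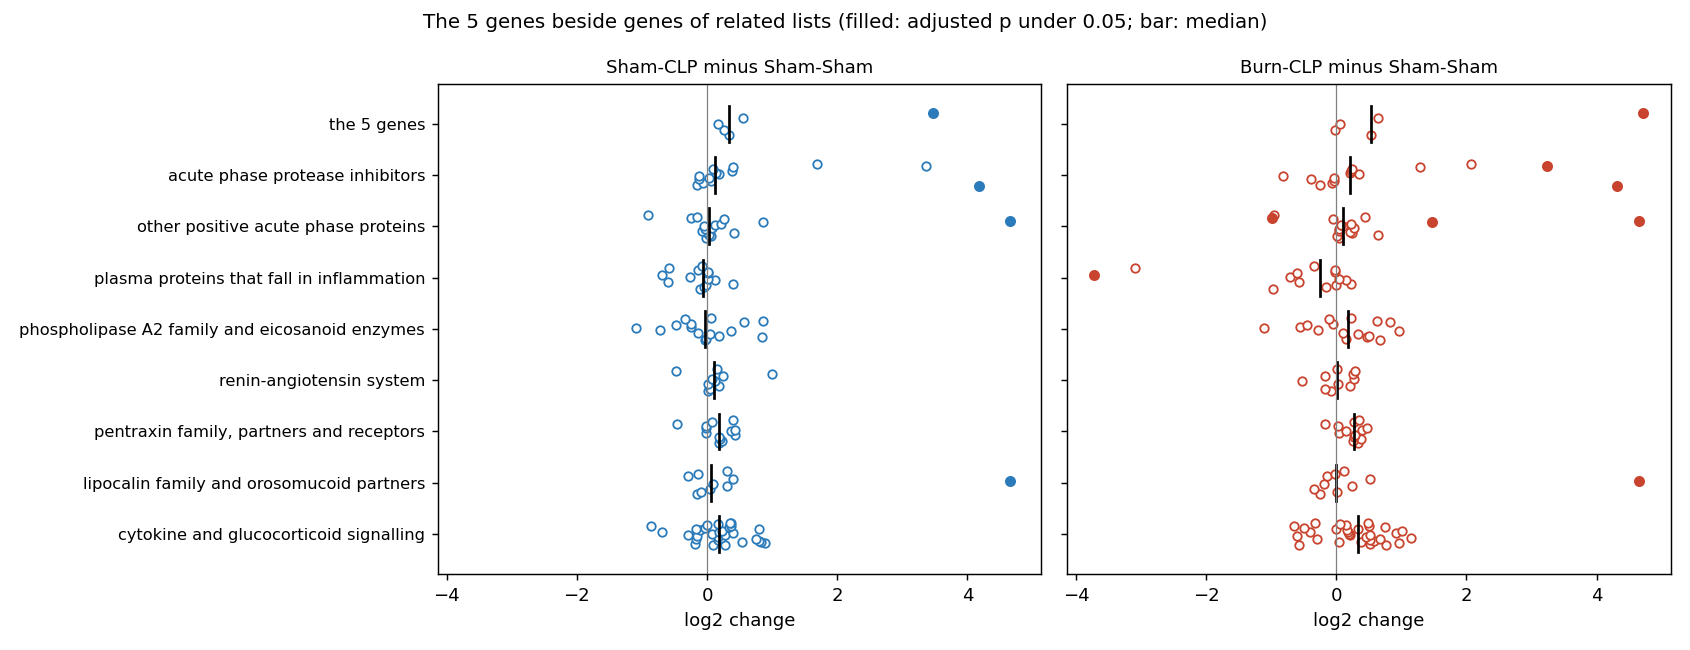
Log2 change of the 5 genes and of the tested genes of 8 related lists, for Sham-CLP and for Burn-CLP against Sham-Sham; each point is a gene at its brightest probe set, bars are list medians and filled points passed at an adjusted p under 0.05. Pla2g2a stands with A2m, Lcn2 and Spink1 beyond 3 on the log2 axis, and list medians lie between -0.25 and 0.34 beside 0.34 and 0.54 for the 5 genes.

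Across all arrays, Pla2g2a was again the 1 member that passed. A test over all 3 groups (moderated F in limma) gave an adjusted p of 0.0011 for Pla2g2a, 0.156 for Orm1, 0.403 for Agt, 0.526 for Apcs and 0.813 for Crp, where 0.148% of all probe sets tested passed. Set against all probe sets, 0% had a larger absolute log2 change than Pla2g2a in Burn-CLP against Sham-Sham, 17.7% than Orm1, 24.7% than Agt, 90.6% than Crp and 96.8% than Apcs. These shares rest on quantile-normalized signals, where genes near the top of the scale, such as Orm1, Crp and Apcs, had little room to rise. Whether the members differ from each other in response was not tested.

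**Figure D4:**
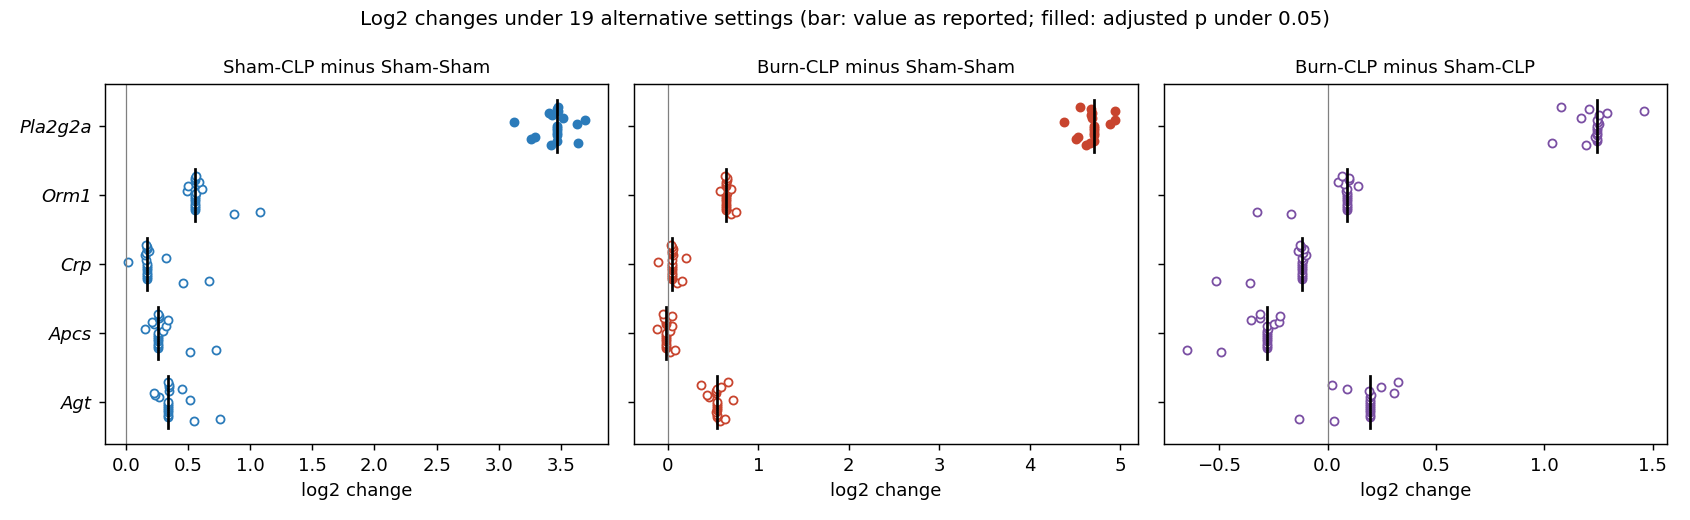
Log2 change of each of the 5 genes under 19 alternative settings in the 3 comparisons; the black bar is the value as reported, points are alternatives and filled points passed at an adjusted p under 0.05. Pla2g2a keeps to 3.12 to 3.70 for Sham-CLP and 4.37 to 4.94 for Burn-CLP, while Orm1 and Agt cross 0 in the comparison of both CLP groups.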

How the data were processed

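The authors deposited linear signal intensity values for every probe set of each array. The step from scan to signal is not described in these sources. Their values show scaling of each array to a trimmed mean near 500.2. Arrays were quantile normalized, because the median of Sham-Sham 1 was 118% of the mean of array medians. Signals below the 20th percentile (64.3) were set to it before log2 was taken. The 57 control probe sets were left out, and testing required signal above the floor on 3 or more of the 9 arrays. Linear models were fitted with limma 3.58.1 (lmFit, eBayes) in R 4.3.3 on all 9 arrays. The steps were tested on simulated data. The number of arrays limits the precision, and there are no reads to count. For 3 arrays against 3, an exact permutation test cannot give a two-sided p below 0.1, so none was run.

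Symbols came from the platform annotation and were updated to RefSeq GRCr8 through Entrez identifiers; 12783 probe sets had 1 symbol, 312 several and 2771 none. A gene of a list was represented by its brightest probe set. The genes named are the 5 members, the 3 genes most correlated with each, and from each list those that passed or had the smallest p, of which some are left out; genes beside these, such as Pla2g5, were chosen after their values were seen. The members and lists were chosen with earlier results of these data known. Alternatives were 2 other scalings, 3 treatments of low signals, 2 filters, fits of only the compared groups, a trended and robust spread, the replicate number as a block, and leaving out each array.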

Additional observations from a re-analysis of the deposited data

How the results depend on the processing

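Of the 19 alternatives per comparison, those that changed a direction or a call follow; the cause was not tested. Under the deposited scaling Burn-CLP minus Sham-CLP was -0.17 for Orm1, and Burn-CLP minus Sham-Sham was 0.025 for Apcs. Scaling to a common median gave -0.33 for Orm1 and -0.13 for Agt in Burn-CLP minus Sham-CLP and 0.078 for Apcs in Burn-CLP minus Sham-Sham. Without 1 array, Burn-CLP minus Sham-Sham ranged from -0.12 to 0.046 for Apcs and from -0.10 to 0.20 for Crp. Without the filter, Pla2g2a in Sham-CLP kept its log2 change of 3.47 and lost its call (adjusted p = 0.0503), which left 0 of the 5 genes called there by limma (2 at an unadjusted p under 0.05 with the filter), while Orm1 in Burn-CLP (0.64) gained one, making 2. Among all 15866 probe sets tested without the filter, 7 passed in Sham-CLP and 101 in Burn-CLP. With a trended and robust spread Orm1 (0.64) also passed in Burn-CLP, again making 2 of the 5, beside 317 of all 13535 probe sets.

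The background counts moved more. Of all probe sets, 8 passed in Sham-CLP, 4 with the deposited scaling and 4 to 347 without 1 array (347 without Sham-Sham 3). In Burn-CLP 101 passed, 53 with the floor at the 10th percentile, 212 at the 30th, 56 with log2(signal + 16), 13 with only the compared groups, 317 with the trended and robust spread and 19 to 645 without 1 array (645 without Sham-Sham 3). Between Burn-CLP and Sham-CLP 2 passed, 1 with the deposited scaling, 4 with the floor at the 10th percentile, 0 at the 30th, 1 with log2(signal + 16), 4 without the filter, 0 above the floor on all 9 arrays, 0 with only the compared groups, 10 with the trended and robust spread and 0 to 36 without 1 array (36 without Burn-CLP 3).

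Replicate numbers share no stated origin, and deviations of same-numbered arrays correlated at -0.03 to 0.08. Arrays correlated best with their own number in 13 of 18 cases, each with 3 arrays to choose from. Whether the numbers mark a shared factor was not tested. With the number as a replicate block, 4 probe sets passed in Sham-CLP, 59 in Burn-CLP and 0 between the CLP groups, and the calls of the 5 genes did not change.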
